A study of Mus musculus with 4 samples.

Results

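The genes described here are 5 genes of intestinal calcium and phosphate absorption, Trpv6, S100g, Atp2b1, Vdr and Slc34a2. They were chosen by name, and every probe set annotated to 1 of them alone was used, which gave 8 of the 45037 probe sets on the array and 5 of 18193 named genes. The data were 4 one-colour Affymetrix arrays of epithelial cells from the small intestine of C57BL/6J mice, adult, healthy, aged 10 weeks and kept specific pathogen-free. By label, 2 arrays were AP-1B-/- (knockout, called KO 1 and KO 2) and 2 were AP-1B+/- (heterozygous, called het 1 and het 2). AP-1B is a clathrin adaptor complex of epithelial cells that directs membrane proteins to the basolateral side, and its mu1B subunit is the product of Ap1m2. The heterozygous mice lack 1 functional copy, and no wild-type array was analysed here. Neither the deleted stretch of the gene, nor the number of animals behind an array, nor any pooling of RNA is stated in the labels. The p-values therefore measure the spread between these samples only. The 2 arrays of each label differed in sex pattern (below), so that spread holds different animals and sex beside technical variation.

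Absorptive enterocytes move calcium from the lumen to the blood in steps. TRPV6 is the apical calcium channel, calbindin-D9k (encoded by S100g) binds calcium in the cytosol and carries it across the cell, and the plasma membrane calcium pump PMCA1 (encoded by Atp2b1) extrudes it at the basolateral side. The vitamin D receptor, Vdr, is a nuclear receptor that pairs with RXR and raises transcription of Trpv6 and S100g when active vitamin D is bound. Phosphate enters across the brush border through sodium-phosphate cotransporters, of which NaPi-IIb, encoded by Slc34a2, is the intestinal form. In mice TRPV6 and calbindin-D9k are most abundant in the duodenum and NaPi-IIb in the ileum.

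The upstream sequences of Trpv6 and S100g are shown because they are the vitamin D-responsive uptake genes of the set, and that of Vdr because it is their regulator. Each line gives the 250 bases before the RefSeq start of the gene on its own strand (RefSeq, GRCm38.p6). The windows lie at chr6:41636406-41636655 (minus strand) for Trpv6, chrX:162964600-162964849 (minus strand) for S100g and chr15:97908297-97908546 (minus strand) for Vdr. Capitals mark matches, on either strand, to the nuclear receptor core motif AGGTCA, the HNF4 motif CAAAGTCCA or the GC box GGGCGG.
Trpv6: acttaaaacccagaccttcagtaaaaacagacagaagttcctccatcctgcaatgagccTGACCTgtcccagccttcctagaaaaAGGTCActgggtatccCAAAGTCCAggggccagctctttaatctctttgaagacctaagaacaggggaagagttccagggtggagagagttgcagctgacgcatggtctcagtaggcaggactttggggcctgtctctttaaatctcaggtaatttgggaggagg
S100g: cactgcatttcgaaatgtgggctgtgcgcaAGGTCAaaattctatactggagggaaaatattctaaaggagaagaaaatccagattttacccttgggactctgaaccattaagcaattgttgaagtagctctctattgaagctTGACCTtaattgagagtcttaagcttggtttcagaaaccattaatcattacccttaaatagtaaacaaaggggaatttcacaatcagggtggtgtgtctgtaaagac
Vdr: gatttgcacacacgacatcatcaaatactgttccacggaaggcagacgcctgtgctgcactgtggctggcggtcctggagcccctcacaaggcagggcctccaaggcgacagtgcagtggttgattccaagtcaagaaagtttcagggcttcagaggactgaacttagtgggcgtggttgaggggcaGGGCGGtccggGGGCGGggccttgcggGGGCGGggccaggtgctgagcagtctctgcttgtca
The Trpv6 window held 2 AGGTCA matches, at 191 to 186 bases (on the reverse strand) and 165 to 160 bases before the start, and 1 HNF4 match at 149 to 141 bases. The S100g window also held 2 AGGTCA matches, at 220 to 215 and 107 to 102 bases (the second on the reverse strand). Of 32851 promoter windows of the same length, 14.0% held at least 1 AGGTCA and 1.36% at least 2, while 0.384% held the HNF4 motif. The Vdr window had 3 GC boxes and no AGGTCA, and 32.7% of windows held at least 1 GC box and 16.7% at least 2. The vitamin D response element of the DR3 type was searched for under that name on both strands, matched in 0.222% of windows, and was not in the windows of any of the 5 genes. The capitals did not overlap between motifs in these 3 windows. A match is a run of letters and not evidence of binding, and a missing match says only that these letters were not in this window.

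Signals are multiples of the array median, since every deposited array had a median between 0.996 and 0.998, and levels are compared between arrays for 1 probe set, not between probe sets. The 75th percentile was 5.57 on KO 1, 4.27 on KO 2, 4.13 on het 1 and 5.54 on het 2, so scaling to that percentile or quantile normalization can move an order of arrays. The targeted gene, Ap1m2 (probe set 1460190_at), had 2.49 on KO 1 and 22.3 on KO 2, against 19.9 on het 1 and 4.33 on het 2. The Ap1m2 signal thus went against the labels of KO 2 and het 2, and all group directions below follow the labels of the libraries. Xist, the RNA of the inactive X chromosome in females, had 0.07 on KO 1 and 60.1 on KO 2, against 0.349 on het 1 and 30.3 on het 2, so each label held an array with the male and an array with the female pattern. All 9 epithelial markers were above the array median on all 4 arrays, with summed signals of 2728 and 1570 on KO 1 and KO 2 and 1725 and 2335 on het 1 and het 2.

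By label, none of the 5 genes passed the test, and 4 of the 8 probe sets (3 of the 5 genes) were lower on both KO arrays than on both het arrays. These were Vdr, S100g and Slc34a2. The mean signal of the brighter Vdr probe set was 39.5% lower in the KO arrays, that of S100g 22.7% lower and that of Slc34a2 47.4% lower, while Trpv6 and Atp2b1 overlapped between the labels. Across the table, 0% of 22519 tested probe sets passed an adjusted p of 0.05 (limma, Benjamini-Hochberg) in either direction, and 10.7% were lower on both KO arrays without overlap. At an unadjusted p under 0.05, limma had 170 probe sets (0.755%), none of them a member in this fit. After quantile normalization 1 of the 5 genes, Slc34a2, was still without overlap, where 11% of probe sets were.

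**Figure D1:**
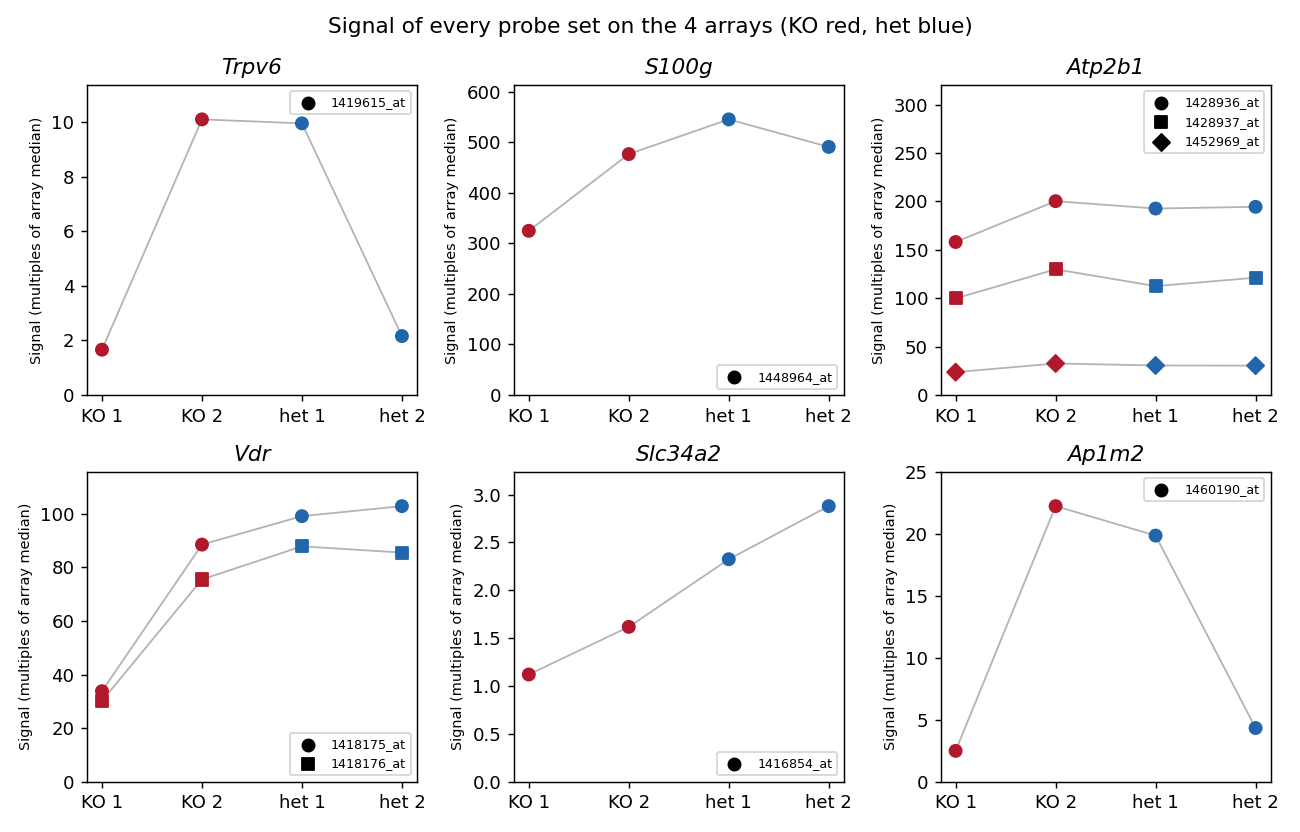
Signal (linear axis from 0, multiples of the array median) of each of the 8 member probe sets and of Ap1m2 on the arrays labelled KO (red) and het (blue). Each point is 1 array, and grey lines join the points of a probe set. KO 1 is the lowest array in all panels, and Trpv6 and Ap1m2 are also low on het 2.

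The calcium channel gene Trpv6 (probe set 1419615_at) had signals of 1.66 on KO 1 and 10.1 on KO 2, against 9.95 on het 1 and 2.16 on het 2. Each label therefore held 1 high and 1 low array, and the groups overlapped fully. The means were 5.88 ± 5.97 in KO and 6.06 ± 5.51 in het arrays (SD, n = 2 each), a log2 difference of −0.15 ± 0.77 (SE; limma, adjusted p = 0.999868). That difference turned sign with the arrays used. It was 1.05 without KO 1 and 0.87 without het 1, against −1.35 without KO 2 and −1.18 without het 2, and none of these passed (limma, adjusted p of at least 0.387). A fit with an array left out has 1 array under that label, which is assumed to vary like the 2 of the other.

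Read beside Ap1m2, the arrays fell in the same order for Trpv6, with KO 2 highest, then het 1, het 2 and KO 1. Neighbours in that order did not all differ, since KO 2 had 1.01 times the Trpv6 signal of het 1 and KO 1 had 0.769 times that of het 2. KO 2 had 6.09 times the Trpv6 signal of KO 1, where Ap1m2 had 8.95 times. Het 1 had 4.61 times the Trpv6 signal of het 2, where Ap1m2 had 4.59 times. The lower Trpv6 signals of these ratios, 1.66 on KO 1 and 2.16 on het 2, were close to the array median. Whether they exceed the background was not tested, so the size of the ratios is uncertain. Of tested probe sets, 2.55% had a larger gap between the KO arrays and 1.95% between the het arrays than Trpv6. The order of Ap1m2 was found at 3.45% of tested probe sets, and 0.266% (60 probe sets) had both ratios at least as large as Trpv6. With quantile normalization the ratios for Trpv6 were 7.49 between the KO arrays and 5.97 between the het arrays, het 1 then lay just above KO 2, and 0.249% of probe sets had both ratios at least as large. These are single arrays, chosen by no label, and no test was made of them.

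The contrast of Trpv6 with the other members depended on the scaling. On the deposited values, Trpv6 was the 1 gene of 5 whose brightest probe set was higher on KO 2 and het 1 than on KO 1 and het 2, a division seen at 11.7% of tested probe sets. After quantile normalization 4 of the 5 genes, all but Slc34a2, had that division, which 24.9% of tested probe sets then showed, and 4 of 5 had it after 75th percentile scaling. The array order of S100g and of all 3 Atp2b1 probe sets was then that of Ap1m2 with quantile normalization, and that of Trpv6 was not. The gap stayed larger for Trpv6, with 5.97 times between het 1 and het 2 after quantile normalization, against 1.06 times for S100g, 1.35 times for the brighter Vdr probe set and 1.23 times for the brightest Atp2b1 probe set.

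Markers of intraepithelial T cells had the same division of arrays. All 7 T cell genes examined had higher signals on KO 2 and het 1 than on KO 1 and het 2, beside the 11.7% of tested probe sets on the deposited values and 24.9% after quantile normalization. Their summed signal was 10.3 on KO 1 and 194 on KO 2, against 314 on het 1 and 69.1 on het 2. Most of that sum was the granzyme gene Gzma, at 5.785 on KO 1 and 149 on KO 2, against 244 on het 1 and 53.8 on het 2. None of the 7 genes was at 0. Cd3e, the CD3 chain gene with the lowest signal on KO 1, had 0.211 there and 5.88 on KO 2, against 8.09 on het 1 and 0.296 on het 2. The part of T cells in the Trpv6 values was not tested. In such bulk samples, fewer cells of a type and less RNA per cell cannot be told apart.

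**Figure D2:**
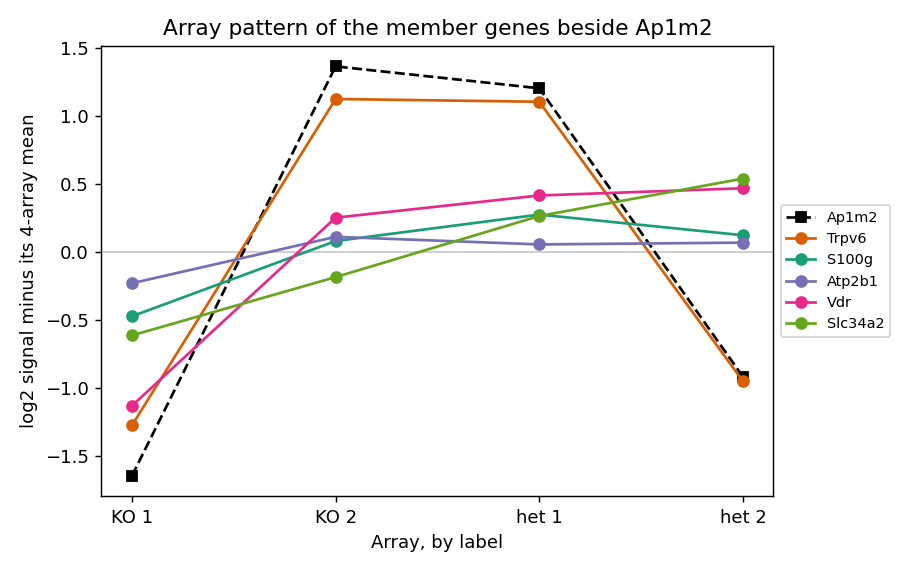
Array pattern of the brightest probe set of each of the 5 genes (circles) beside Ap1m2 (squares, dashed), as log2(signal + 0.321) minus its mean over the 4 arrays. Trpv6 follows Ap1m2 on all 4 arrays, whereas S100g, Atp2b1, Vdr and Slc34a2 are lowest on KO 1 and above their mean on het 2 on the deposited scale shown. After quantile normalization S100g, Atp2b1 and Vdr also have KO 2 and het 1 above KO 1 and het 2, with smaller gaps than Trpv6.

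S100g (probe set 1448964_at), the cytosolic calcium carrier, had signals of 325 on KO 1 and 476 on KO 2, against 545 on het 1 and 491 on het 2. Both KO arrays lay below both het arrays, but KO 2 had 0.971 times the signal of het 2. The means were 401 ± 107 in KO and 518 ± 38.5 in het arrays (SD, n = 2 each), a log2 difference of −0.39 ± 0.35 (SE; limma, adjusted p = 0.999868). The difference was −0.12 without KO 1 and −0.67 without KO 2. With quantile normalization S100g was highest on KO 2, at 560, against 534 on het 1 and 502 on het 2, and the groups overlapped. Het 1 and het 2, whose Ap1m2 signals were 4.59-fold apart, differed 1.11-fold in S100g, and 87.0% of tested probe sets differed more between those arrays. That closeness depended on the scaling, with 1.06-fold after quantile normalization and 1.49-fold after 75th percentile scaling. Under the latter the order was het 1, KO 2, het 2, KO 1.

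Atp2b1, the basolateral calcium pump, was read by 3 probe sets drawn from the same accession. The brightest, 1428936_at, had 158 on KO 1 and 200.3 on KO 2, against 193 on het 1 and 194 on het 2. It was the flattest of the 5 genes, with 1.27 times between its highest and lowest array. The means were 179 ± 29.9 in KO and 194 ± 1.26 in het arrays (SD, n = 2 each), a log2 difference of −0.12 ± 0.42 (SE; limma, adjusted p = 0.999868), which was 0.049 without KO 1 and −0.29 without KO 2. Probe set 1428937_at had 99.7 and 130 on KO 1 and KO 2, against 112 and 121 on het 1 and het 2. Probe set 1452969_at had 23.5 and 32.5 on KO 1 and KO 2, against 30.4 and 30.3 on het 1 and het 2. All 3 were highest on KO 2 and lowest on KO 1, and their log2 differences of −0.12, −0.037 and −0.13 were each smaller than their standard errors. Het 1 had 0.991, 0.928 and 1.01 times the signal of het 2 for the 3 probe sets in the order given. That closeness depended on the scaling, since the 3 ratios were 1.23, 1.26 and 1.50 after quantile normalization and 1.33, 1.25 and 1.35 after 75th percentile scaling. Under either scaling all 3 probe sets took the array order of Ap1m2.

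Vdr, the regulator of the transcellular route, was read by 2 probe sets of the same accession. The brighter, 1418175_at, had 33.8 on KO 1 and 88.5 on KO 2, against 99.2 on het 1 and 103 on het 2. KO 1 stood apart, while KO 2 had 0.860 times the signal of het 2 and 0.893 times that of het 1. The means were 61.2 ± 38.7 in KO and 101 ± 2.65 in het arrays (SD, n = 2 each), a log2 difference of −0.88 ± 0.57 (SE; limma, adjusted p = 0.999868). The second, 1418176_at, had 30.1 and 75.5 on KO 1 and KO 2, against 87.9 and 85.5 on het 1 and het 2, with a log2 difference of −0.86. The difference for the brighter probe set was −0.19 without KO 1 and −1.57 without KO 2, so its size rested on KO 1. With quantile normalization KO 2, at 107, lay between het 1, at 116, and het 2, at 86.1.

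By Ap1m2 signal, on the deposited values, Vdr was low on KO 1, the array with the lowest Ap1m2, but not on het 2, the other array with low Ap1m2. The Vdr signal of KO 1 was 0.328 times that of het 2. Of tested probe sets, 13.9% differed more between the KO arrays and 95.4% more between the het arrays than the brighter Vdr probe set. The closeness of the het arrays depended on the scaling. Het 1 had 1.35 and 1.48 times the signal of het 2 for the 2 probe sets after quantile normalization, and 1.29 and 1.38 times after 75th percentile scaling. Under either scaling both probe sets had the order het 1, KO 2, het 2, KO 1.

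Slc34a2 (probe set 1416854_at), the brush border phosphate cotransporter, was dim, with 1.12 on KO 1 and 1.62 on KO 2, against 2.33 on het 1 and 2.88 on het 2. Detection calls were not used here, so whether signals this close to the array median exceed the background was not tested. Both KO arrays lay below both het arrays, also after quantile normalization and 75th percentile scaling. The means were 1.37 ± 0.352 in KO and 2.60 ± 0.392 in het arrays (SD, n = 2 each), a log2 difference of −0.80 ± 0.43 (SE; limma, unadjusted p = 0.0881, adjusted p = 0.999868). When each array was left out in turn the difference lay between −1.01 and −0.59. Its array order, het 2, het 1, KO 2, KO 1, was not that of Ap1m2.

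**Figure D3:**
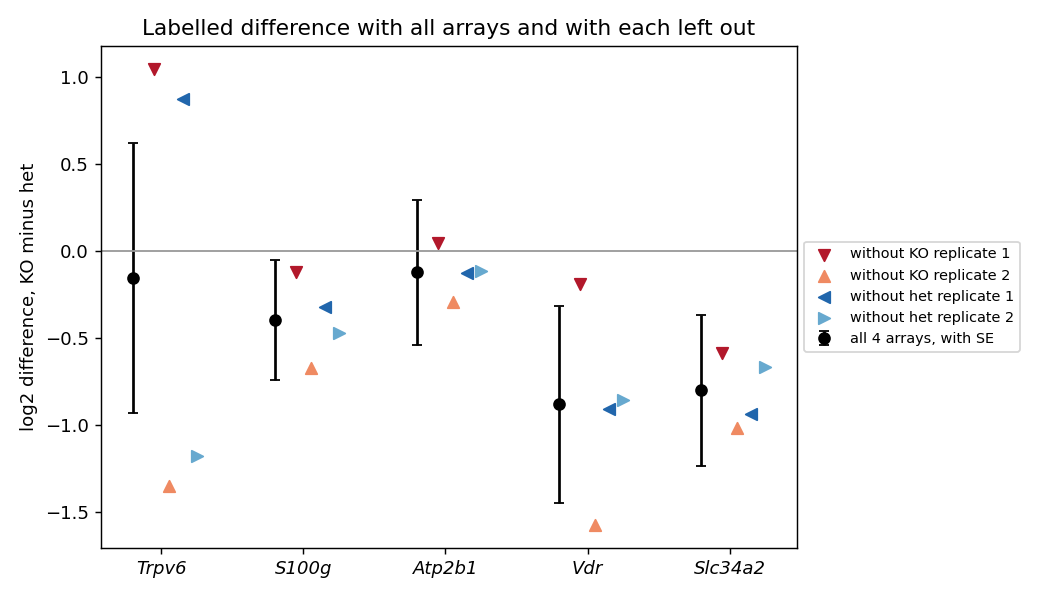
Log2 difference (KO minus het by label) of the brightest probe set of each gene with all 4 arrays (black, bars are the limma standard error) and with each array left out (triangles). Trpv6 lies between −1.35 and 1.05, and Vdr between −1.57 and −0.19.

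All 8 probe sets of the 5 genes were lowest on KO 1, also after quantile normalization, where KO 1 was the lowest array at 21.1% of tested probe sets before and 32.8% after it. The 3 other arrays were then compared on the deposited values. Their highest and lowest were 1.16-fold apart for the brighter Vdr probe set, 1.14-fold for S100g and 1.04-fold for the brightest Atp2b1 probe set. They were 4.68-fold apart for Trpv6 and 1.78-fold for Slc34a2. This depended on the scaling. After quantile normalization the same 3 arrays ran from 86.1 to 116 for Vdr, from 502 to 560 for S100g and from 172 to 239 for Atp2b1. KO 1 was also the array with the highest signal of all 8 measured markers of proliferating crypt cells, summing to 414 on KO 1 and 142 on KO 2, against 138 on het 1 and 220.2 on het 2. On the same deposited values, 7 of the 9 epithelial markers were also highest on KO 1. After quantile normalization KO 1 had 1.11 to 3.38 times the signal of KO 2 for the crypt markers. For the epithelial markers it then had 0.702 to 2.82 times. The share of all probe sets highest on KO 1 is not given here. KO 1 and het 2 both lay above KO 2 and het 1 at 52.7% of tested probe sets (28.4% after quantile normalization). The proximal small intestine markers summed to 2025 and 1759 on KO 1 and KO 2, against 1949 and 2167 on het 1 and het 2, with 4 of the 8 lowest and 2 highest on KO 1. Lactase, Lct, differed by far more than the others, with 3.97 and 237 on KO 1 and KO 2, against 312 and 82.3 on het 1 and het 2, while the fatty acid-binding protein gene Fabp1 had 910 and 582 on KO 1 and KO 2, against 707 and 770 on het 1 and het 2. Cybrd1, of the same list, split the arrays the other way from Lct, with 150 and 35.5 on KO 1 and KO 2, against 35.0 and 196 on het 1 and het 2. The distal markers summed to 47.1 and 121 on KO 1 and KO 2, against 103 and 86.0 on het 1 and het 2, with 3 of the 5 lowest on KO 1. Of these markers, the bile acid exporter subunit genes Slc51a and Slc51b were above the array median on all 4 arrays, the ileal bile acid transporter gene Slc10a2 was below it on all 4, and Fabp6 was highest on KO 1, at 1.52. The remaining distal marker, Cubn, had 0.501 and 13.8 on KO 1 and KO 2, against 18.9 and 1.635 on het 1 and het 2. The part of crypt cells or of the intestinal segment in the member values was not tested.

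Over the 5 genes, the median log2 difference was −0.39 and 5 of 5 were below 0, beside a median of 0.0040 over the 11326 genes with a tested probe set, of which 5601 were below 0 (49.3% of all tested probe sets were). In the array pattern, the genes nearest to each member were found as the smallest root mean square difference of centred log2 signals over the 4 arrays, among 11325 other genes. For Trpv6 they were Csf2 (0.078) and Lmo2 (0.13), both below the array median on KO 1 and het 2, and Ap1m2 ranked 7 (0.227). For S100g they were Prkar1b (0.013) and Inpp5b (0.021), for Atp2b1 Gm15417 (0.014) and Mynn (0.022), for Vdr Sult1d1 (0.025) and Slc35e3 (0.039), and for Slc34a2 A230072C01Rik (0.019) and Arhgap26 (0.024). With 4 arrays many genes share a pattern. By the same measure the other members ranked 848 (Vdr, 0.903), 1017 (S100g, 0.944), 1575 (Atp2b1, 1.03) and 2457 (Slc34a2, 1.13) from Trpv6.

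Other genes of these pathways were read from 6 lists, and 0 of their kept genes passed in either direction (limma). Of 15 genes of calcium entry, buffering and extrusion, 6 had a tested probe set, with 3 log2 differences above and 3 below 0 (median 0.027). Cacna1d, a subunit of an L-type calcium channel, had 0.922 and 1.12 on KO 1 and KO 2, against 1.13 and 1.93 on het 1 and het 2 (log2 difference −0.43, standard error 0.46). Trpm7, a channel kinase for magnesium and calcium, had 13.8 and 13.6 on KO 1 and KO 2, against 12.3 and 23.1 on het 1 and het 2 (−0.30), but its 3 other tested probe sets differed the other way. Atp2b3, another plasma membrane calcium pump, was near the array median (0.26). Anxa2, the annexin that with S100a10 binds TRPV5 and TRPV6, had a log2 difference of 0.11, with its other tested probe set below 0. The calbindin genes Calb1 and Calb2, the sodium-calcium exchanger Slc8a1 and the pumps Atp2b2 and Atp2b4 were too dim to be tested, and Trpv5 and the calmodulin genes were not analysed here.

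The 3 claudins tied to paracellular calcium had a median of 0.021. The pore-forming Cldn2 had 171 and 29.9 on KO 1 and KO 2, against 14.4 and 115 on het 1 and het 2 (log2 difference 0.81, standard error 0.94), with KO 1 and het 2 above KO 2 and het 1, as at 52.7% of tested probe sets (28.4% after quantile normalization). Cldn15 had 74.1 and 87.8 on KO 1 and KO 2, against 89.3 and 127 on het 1 and het 2 (−0.40). Cldn12 differed by 0.021, and its other tested probe set had the other sign.

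Of 9 genes of phosphate transport and its partners, 8 were tested and 6 were below 0 (median −0.19). The brush border scaffold gene Pdzk1, whose protein binds phosphate cotransporters in the kidney, had 2.32 and 61.9 on KO 1 and KO 2, against 69.8 and 29.7 on het 1 and het 2 (log2 difference −1.84, standard error 1.10). The phosphate exporter gene Xpr1 had 18.5 and 30.8 on KO 1 and KO 2, against 30.7 and 38.3 on het 1 and het 2 (−0.51). The intestinal alkaline phosphatase gene Akp3 had 324 and 367 on KO 1 and KO 2, against 404 and 415 on het 1 and het 2 (−0.25). Slc9a3r1, encoding the scaffold NHERF1, had 263 and 283 on KO 1 and KO 2, against 322 and 306 on het 1 and het 2 (−0.20). These 4 were lowest on KO 1, but 3 of the 8 were highest there, named here after their values were seen. They were the sodium-phosphate cotransporter genes Slc20a1 (47.4 and 17.3 on KO 1 and KO 2, against 19.9 and 26.8 on het 1 and het 2) and Slc20a2 (10.8 and 3.66, against 3.33 and 7.65 in the same order) and the alkaline phosphatase gene Alpi. Of the other tested probe sets, 4 of 5 for Xpr1 and 1 of 2 for Slc9a3r1 had the sign given.

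Of 12 genes of vitamin D metabolism and receptor partners, 7 were tested, with 4 log2 differences above and 3 below 0 (median 0.039). The sterol 27-hydroxylase gene Cyp27a1, which can also 25-hydroxylate vitamin D, had 2.15 and 7.83 on KO 1 and KO 2, against 13.0 and 6.90 on het 1 and het 2 (log2 difference −1.13, standard error 0.61). The VDR partner genes Rxrb and Rxra had log2 differences of 0.52 and −0.23, and the other tested probe set of Rxra was above 0. Rxrb had 11.4 and 10.3 on KO 1 and KO 2, against 5.49 and 10.2 on het 1 and het 2. The vitamin D 25-hydroxylase gene Cyp2r1 had 1.31 and 1.23 on KO 1 and KO 2, against 1.32 and 1.55 on het 1 and het 2. Cyp24a1, the vitamin D-degrading enzyme that active VDR induces, was too dim to be tested, with signals between 0.357 and 0.716, as were Cyp27b1, which makes active vitamin D, and Rxrg.

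Of 4 vitamin D receptor targets, 3 were tested and 3 were below 0 (median −0.028). Cyp3a11, a cytochrome P450 that also responds to the pregnane X receptor, had 38.4 and 401 on KO 1 and KO 2, against 524 and 342 on het 1 and het 2 (log2 difference −1.76, standard error 0.79). The transporter genes Slc30a10 (manganese) and Abcb1a (drug efflux) had log2 differences of −0.011 and −0.028, with standard errors of 0.55 and 0.57. The other tested probe set of Slc30a10 was above 0. Of the hormone receptor genes Casr, Pth1r, Kl and Fgfr1, only the calcium-sensing receptor gene Casr was tested, at 1.03 and 0.824 on KO 1 and KO 2, against 1.22 and 1.84 on het 1 and het 2 (−0.55).

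**Figure D4:**
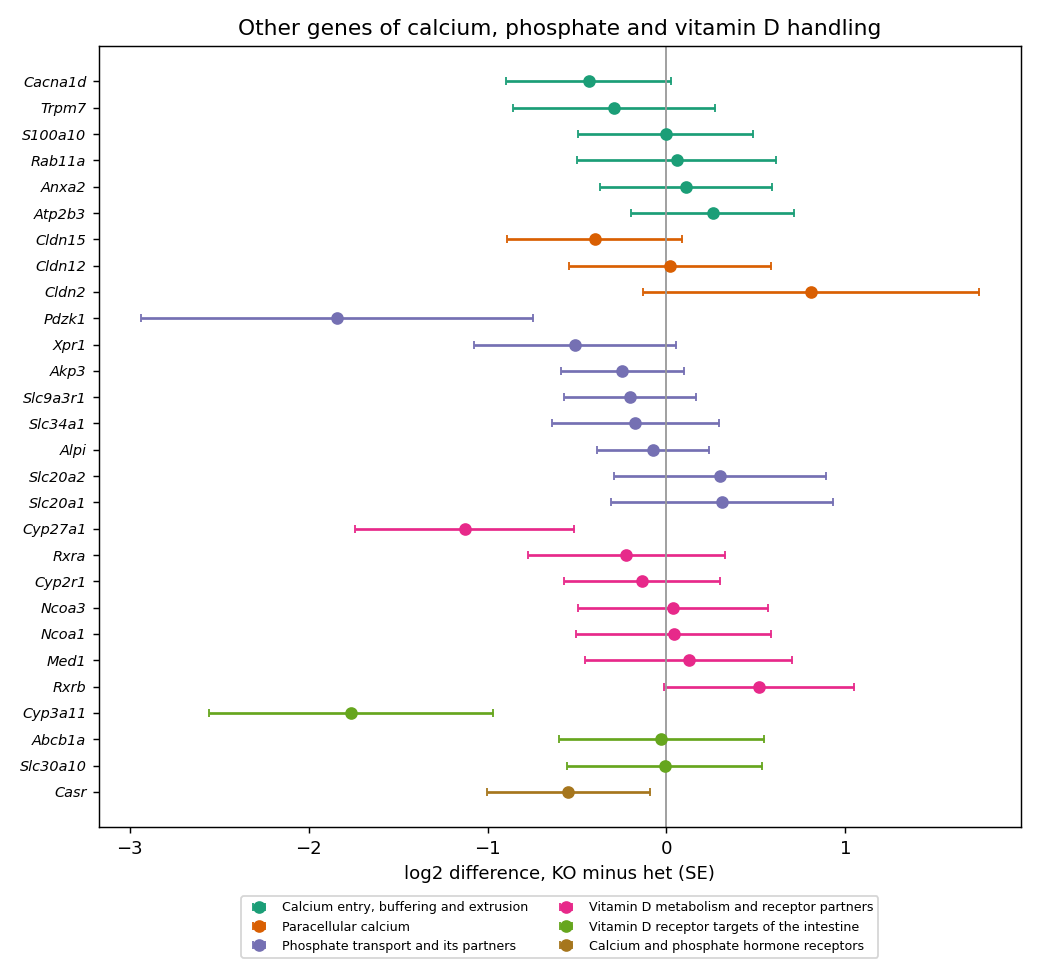
Log2 difference (KO minus het by label, horizontal axis) of every tested gene of the 6 pathway lists, with the limma standard error as bars and 1 colour per list. The lowest values are those of Pdzk1 (−1.84) and Cyp3a11 (−1.76) and the highest is that of Cldn2 (0.81), and none passed the test.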

How the data were processed

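Gene expression was measured in 4 samples, 2 labelled AP-1B-/- and 2 labelled AP-1B+/-. The deposited table gives 1 intensity value per probe set and array, made with MAS5 per the submitters' processing notes, with no version stated. The deposited intensity values have a median just under 1 on each array, so they had been rescaled. Gene names came from the array's platform annotation, which assigned a single gene to 34945 of the 45037 probe sets. The 932 assigned to several genes and the 9160 without a name were not used for naming. The gene identifiers of all 8 member probe sets were found in RefSeq (GRCm38.p6). Columns were matched to samples by accession, and no 2 arrays had more than 0.144% of values identical.

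Values were taken as log2(value + 0.321), the pseudocount being the 25th percentile, which understates changes of dim probe sets. The 22519 probe sets with a mean of at least 0.983, the median of such means, were tested, including all 8 member probe sets. KO was compared with het by label with limma 3.58.1 in R 4.3.3 (lmFit, eBayes with intensity trend) and Benjamini-Hochberg adjustment over all tested probe sets at 0.05. The script was tested on simulated data. A gene was represented by its brightest tested probe set. No KO or het group was formed from Ap1m2 signal. The crossed pairing reported below used KO 1 with het 2 and KO 2 with het 1 as blocks. Those blocks are also the arrays with low and with high Ap1m2 signal. Named genes were, beside all members, up to 4 per list, those past the threshold and then those with the smallest p, and the 2 nearest genes per member in array pattern. The members and lists were chosen with earlier results of these data known. Alternatives were the pseudocount, the filter, quantile and 75th percentile scaling, the trend, a replicate block, averaging the probe sets of each gene, and leaving out each array. With 2 arrays against 2, precision is limited by their number. Promoter windows were searched for motifs on both strands.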

Additional observations from a re-analysis of the deposited data

How the results depend on the processing

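No member passed the adjusted threshold under any setting run (limma). The 10 alternatives that left out no array gave 49 member values, all with the sign of the value reported. Many of these signs were fixed in advance. In this balanced fit, changing the filter or the trend, or adding a block, cannot alter the difference itself. Averaging probe sets likewise cannot alter it for Trpv6, S100g and Slc34a2, each read by 1 probe set. Only the pseudocount, the scaling, and the averaging for Atp2b1 and Vdr could have turned a sign. Leaving out 1 array gave ranges of −1.35 to 1.05 for Trpv6, −0.29 to 0.049 for Atp2b1, −0.67 to −0.12 for S100g, −1.57 to −0.19 for Vdr and −1.01 to −0.59 for Slc34a2. The extremes came without KO 1 (nearest to or above 0) and without KO 2, and the sign turned for Trpv6 without KO 1 or het 1 and for Atp2b1 without KO 1. The number of probe sets called over the whole table was 0, was 1 when only the brightest 25% were tested, and ranged from 0 to 240 with an array left out (24 without KO 1, 240 without KO 2), fits in which the spread comes from the 2 arrays of the other label alone. Slc34a2 was too dim for that subset. The replicate number as a block left the differences as they were and gave 0 calls. That number went with the sex pattern, male on KO 1 and het 1 and female on KO 2 and het 2. The replicate block was thus also a block by sex pattern. Same-numbered arrays deviated in opposite directions (r = −0.51 across probe sets, which are not independent), so the numbers were not taken to pair the arrays. The crossed pairing (KO 1 with het 2, KO 2 with het 1), added after the data were seen, also gave 0 calls. Vdr and Slc34a2 then had an unadjusted p of 0.0165 and 0.0414 (limma, adjusted p = 0.815 and 0.879). Because that pairing was taken from the spread of these same arrays, these p-values cannot serve as support for a difference. With 2 arrays per label, and Ap1m2 against the labels of KO 2 and het 2, a lack of calls does not show a lack of difference.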
